A study of Mus musculus with 10 samples.

Results

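IDOL, an E3 ubiquitin ligase that acts on lipoprotein receptors, is encoded in the mouse by Mylip. The 6 genes described here are Mylip, the genes of 4 ubiquitin-conjugating enzymes (Ube2d1, Ube2d2a, Ube2d3 and Ube2e1) and Usp2, which encodes a ubiquitin-specific protease. They were chosen for the known biochemistry of their proteins, with earlier results of these data already known. They were found by symbol among the 53700 gene identifiers of the counts. All 6 were among the 19268 genes tested. The question asked of each was whether its transcript level in the cortex differed between 5XFAD;Neu cKO mice and 5XFAD mice.

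Ubiquitin is passed along a chain of enzymes. An E1 activates it, an E2 carries it on a cysteine, and an E3 ligase brings the loaded E2 to the substrate. IDOL is an E3 of the RING type whose substrates include VLDLR and APOER2 (the product of Lrp8), and it works with E2 enzymes of the UBE2D family and with UBE2E1. Ubiquitinated receptors are sorted to the lysosome. IDOL also ubiquitinates itself, and USP2 can take ubiquitin off IDOL. Mylip is a target gene of the liver X receptors (LXR), nuclear receptors that sense oxysterols, while Usp2 is known as a gene with a daily rhythm in many tissues.

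The data were QuantSeq 3′ RNA-seq counts of the cortex from 10 female mice aged 4 months. All 10 mice carried the 5XFAD transgenes of familial Alzheimer's disease, which are driven by the Thy1 promoter. The 5 mice labelled as cKO for Idol under Camk2a-cre (5XFAD;Neu cKO) came from a cross with floxed Idol and Camk2a-Cre mice, a Cre driver that is active mainly in excitatory neurons of the forebrain. The 5 controls (5XFAD) were 5XFAD littermates labelled WT for Idol in the same cross, and the sources do not say whether any carried a floxed allele or Cre. A bulk library mixes all cells of the cortex, including glia and vessels in which this Cre is not expected to act. In such libraries fewer cells of a type and less RNA per cell cannot be told apart.

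Between 4320504 and 7466192 reads were counted per library in 5XFAD mice and between 5148499 and 7246659 in 5XFAD;Neu cKO mice. All 13 markers of excitatory neurons on a fixed list were tested, and the lowest count of Camk2a in any library was 8302. Markers of microglia were lower in 5XFAD;Neu cKO libraries for 19 of 19 genes tested, with a summed level of 391 to 480 CPM (counts per 1000000 counted reads) against 565 to 825 CPM. Hemoglobin and other red blood cell genes were higher for 5 of 5, with a summed level of 46.9 to 211 CPM against 6.34 to 51.4 CPM. Oligodendrocyte markers were lower for 12 of 12 (summed level 1897 to 2973 CPM against 2157 to 3139 CPM) and astrocyte markers for 12 of 13 (4638 to 5354 CPM against 4794 to 5636 CPM). The tests called 6 microglial genes lower and 2 red blood cell genes higher. They also called Mal of oligodendrocytes, Gfap of astrocytes and the pan-neuronal Thy1 lower (adjusted p by edgeR 0.0427, 0.00202 and 0.000826). A list of striatum, thalamus and hypothalamus genes had 4 higher and 8 lower, with 1 called lower (adjusted p = 0.000932 by edgeR). Neuronal lists were mixed, with 4 of 10 pan-neuronal, 8 of 13 excitatory and 4 of 12 inhibitory markers higher and the rest lower. Hba-a2 and Alas2 had a count of 0 in at least 1 library. Of the reads on mt-Nd3 and Gm28438 together, most were on the former in some libraries and on the latter in the others, from which a base of the mitochondrial DNA was inferred, with 4 of 5 5XFAD;Neu cKO libraries and 1 of 5 5XFAD libraries (replicate 2) of the mt-Nd3 type. The part of these differences in the results below was not tested, except where values with that base are given.

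The 4 E2 enzymes share a catalytic domain with the cysteine that holds ubiquitin. The coding stretch of 60 bases around the codon of this cysteine is shown for 3 of them because it is the site at which ubiquitin is loaded before IDOL uses it. Sequences are on the coding strand in GRCm39 (GENCODE canonical transcripts) and capitals mark the cysteine codon. The stretch of Ube2d1 is at chr10:71094050-71094109 (minus strand), that of Ube2d3 at chr3:135165763-135165822 (plus strand) and that of Ube2e1 at chr14:4185302-4185361 (plus strand), each within an exon.
Ube2d1: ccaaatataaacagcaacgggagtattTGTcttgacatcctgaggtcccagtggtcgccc
Ube2d3: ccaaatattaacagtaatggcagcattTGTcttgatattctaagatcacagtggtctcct
Ube2e1: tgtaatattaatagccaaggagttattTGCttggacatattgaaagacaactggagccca
Ube2d1 and Ube2d3 differed at 12 of these 60 bases, Ube2d1 and Ube2e1 at 25, and Ube2d3 and Ube2e1 at 28. Over their whole aligned coding sequences, Ube2d2a and Ube2d3 were the closest pair with 86.3% identical bases. Ube2d1 shared 76.1% with Ube2d2a and 77.7% with Ube2d3. Ube2e1 shared 63.3% to 64.8% with the UBE2D genes.

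Because the libraries read transcripts near their 3′ ends, the last bases of each transcript matter more for the counts than the coding sequence. No run of 25 bases was shared between the last 500 bases of any pair of the E2 genes. Usp2 and Ube2d1 had no other place in the genome that matched their last 500 bases. For Mylip the closest other place matched 145 bases at 71.7% identity. For Ube2d2a it matched 35 bases at 100% identity within Phf20, which had 264 to 477 counts. The last 500 bases of Ube2d3 matched 12 other places, the best of them over 506 aligned bases at 90.1% within 6030443J06Rik, which had 0 to 12 counts. The last 500 bases of Ube2e1 matched 86 other places, the best over 325 bases at 96.6%, and the antisense gene Nkiras1 (235 to 526 counts) overlapped its 3′ end. The counts of Ube2e1 and, to a lesser degree, Ube2d3 are therefore uncertain. Reads with several places or on overlapping genes may have been left out or split. Reads of Ube2d2a may also have been left out, since the same-strand gene Gm50371 (0 counts) overlapped its 3′ end. Ube2d2a has 19 distinct annotated 3′ ends, and only the end of the canonical transcript of each gene was searched.

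The promoters of Mylip and Usp2 are shown as the ligase and the protease that acts on it, from the RefSeq promoter table, which held 5 of the 6 genes. The 250 bases before each RefSeq start were placed in GRCm39 by an exact match, and capitals mark the motifs found on either strand. Mylip is at chr13:45542968-45543217 (plus strand), at the start of the gene. Usp2 is at chr9:43995967-43996216 (plus strand), within the span of the gene, before the start of a shorter transcript.
Mylip: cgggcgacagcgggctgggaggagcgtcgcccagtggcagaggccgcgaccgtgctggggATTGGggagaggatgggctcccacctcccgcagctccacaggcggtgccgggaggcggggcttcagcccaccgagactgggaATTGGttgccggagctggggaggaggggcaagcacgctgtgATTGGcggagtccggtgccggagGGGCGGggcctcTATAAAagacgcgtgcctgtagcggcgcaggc
Usp2: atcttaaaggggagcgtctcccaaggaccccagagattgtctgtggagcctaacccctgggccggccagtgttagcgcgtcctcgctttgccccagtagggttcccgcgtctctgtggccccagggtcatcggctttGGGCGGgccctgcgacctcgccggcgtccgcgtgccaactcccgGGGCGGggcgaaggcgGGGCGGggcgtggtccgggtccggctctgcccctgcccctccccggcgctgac
The Mylip window held a TATA box (TATAAA) from base -32 relative to the start, 3 CCAAT boxes read on the other strand (ATTGG) and 1 GC box (GGGCGG). The Usp2 window held 3 GC boxes and neither of the other motifs. Of 32851 mouse promoter windows of the same length, 12.4% held the TATA box, 33.8% the CCAAT box and 32.7% the GC box. The E-box CACGTG (6.02% of windows) and the D-box TTATGTAA (0.819%), which clock factors bind, were in neither window. The LXR element, AGGTCA repeated after a gap of 4 bases, was also in neither window and in 0.0152% of all windows.

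The transcript levels of the 6 genes differed widely in the cortex. Usp2 was the most abundant with a mean of 133 CPM over the 10 libraries, followed by Ube2d3 with 122, Ube2d2a with 75.8, Ube2e1 with 41.2, Ube2d1 with 21.0 and Mylip with 13.04. A QuantSeq transcript gives about 1 read whatever its length, so CPM was compared between genes without dividing by length. Usp2 was above Ube2d3 in 8 of 10 libraries and their ranges overlapped, so these neighbours did not separate. Ube2d3 was above Ube2d2a, Ube2d2a above Ube2e1 and Ube2e1 above Ube2d1 in 10 of 10 libraries, with no overlap of the ranges. Ube2d1 was above Mylip in 10 of 10 libraries, although their ranges overlapped.

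Among the 34 E2 genes tested of 36 listed, Ube2d3 ranked 3rd by mean CPM, after Birc6 and Ube2k. Ube2d2a ranked 7th, Ube2e1 14th and Ube2d1 23rd. The other members of the same subfamilies lay in the same range, with Ube2e3 at 43.4 CPM and Ube2e2 at 32.4 CPM, while Ube2d2b had a count of 0 in all 10 libraries, and the limit that a count of 0 allows (3 counts) is 0.694 CPM in the shallowest. Usp2 ranked 4th among the 48 ubiquitin-specific proteases tested of 50 listed, after Usp34, Usp22 and Usp7. It held 5.52% of the summed mean CPM of these proteases, and the IDOL partner Ube2d3 held 7.84% of that of the E2 genes.

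**Figure D1:**
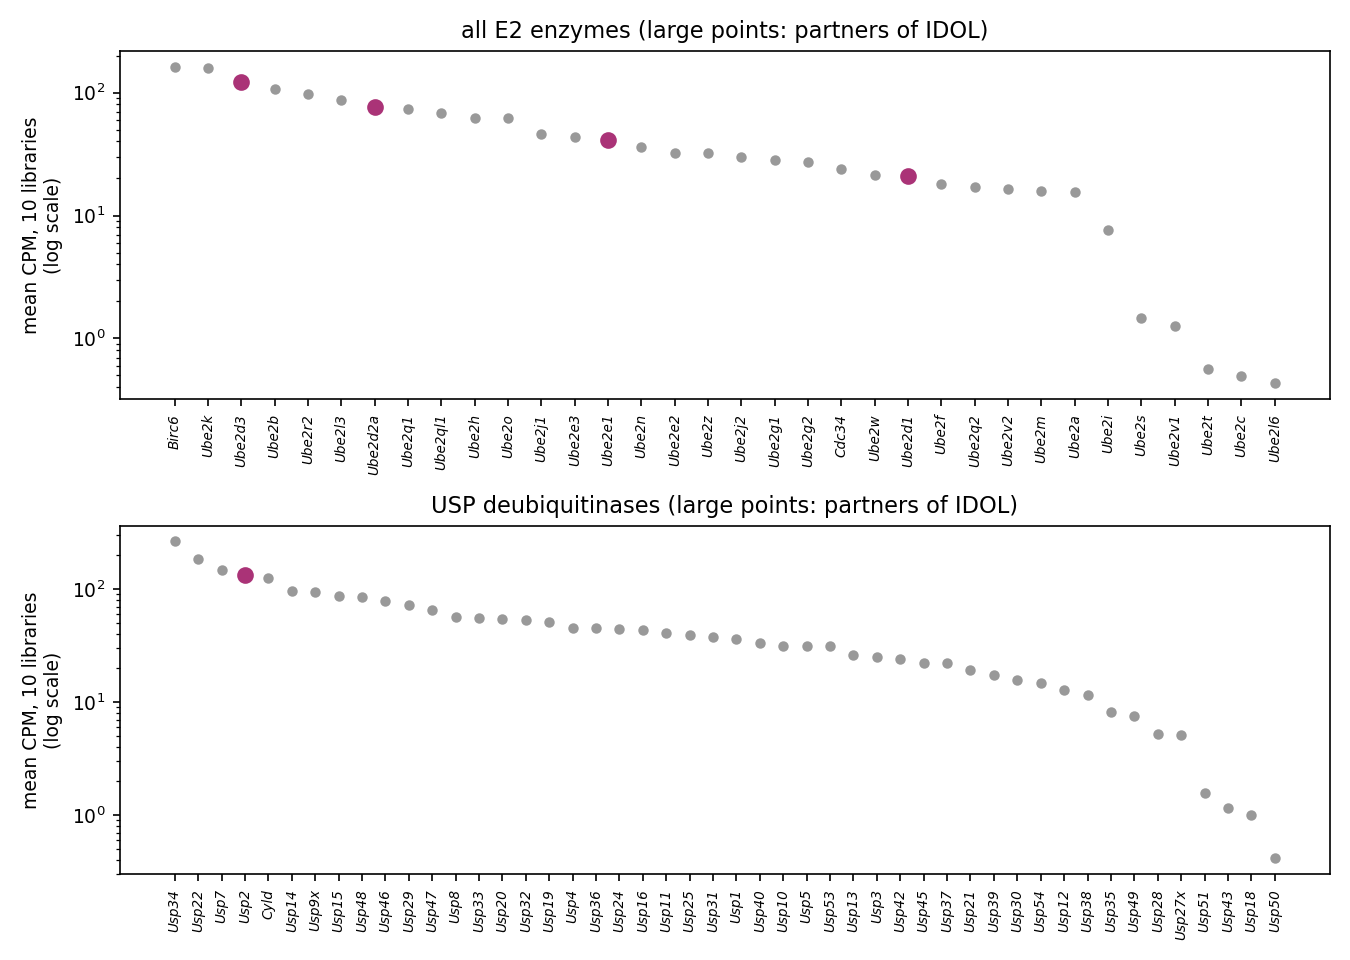
Mean CPM over the 10 libraries on a log axis for each E2 gene tested (upper panel) and each ubiquitin-specific protease gene tested (lower panel), in order of level. Large points mark the genes described here, with Ube2d3 at 122 CPM near the top of the E2 genes, Ube2d1 at 21.0 CPM in their lower part and Usp2 at 133 CPM as the protease ranked 4th.

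Mylip (ENSMUSG00000038175) is on chromosome 13, from 45543215 to 45565501 on the plus strand in GRCm39. Its canonical transcript has 7 exons, and the last one, 1602 bases long from 45563897 to 45565498, holds the end of the coding sequence and the 3′ UTR. In 5XFAD libraries 1 to 5 its level was 9.69, 12.4, 14.7, 9.32 and 10.1 CPM. In 5XFAD;Neu cKO libraries it was 14.4, 14.3, 19.4, 18.8 and 7.18 CPM. Of the 5 libraries with the deletion label, 4 were above the 5XFAD median of 10.1 CPM for the targeted gene. Replicate 5 of that group had the lowest level of all 10 libraries, replicates 3 and 4 were above every 5XFAD library, and the groups overlapped.

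The mean of Mylip was 14.8 ± 4.90 CPM in 5XFAD;Neu cKO and 11.2 ± 2.27 CPM in 5XFAD (SD, n = 5 per group). The fitted log2 fold change was 0.39 (SE 0.25), a fold of 1.31 with a 95% interval of 0.931 to 1.85, and the adjusted p by edgeR's quasi-likelihood test was 0.777. Relabelling the libraries in every way and comparing group means of log2 CPM gave p = 0.254 (exact permutation test, two-sided, n = 5 per group), and this test is the exact permutation test named below. Without 5XFAD;Neu cKO replicate 5 the fitted log2 change was 0.57 with an adjusted p of 0.652. The permutation p of the mean difference of 0.57 was then 0.0317. Over all 10 ways to leave out 1 library, the mean difference was 0.22 to 0.57 and the permutation p 0.0317 to 0.468. The exons that the floxed allele removes are not given in the sources used here. If they lie upstream of the last exon, a shortened transcript can still be counted at its 3′ end, so these counts check the labels only if the 3′ end is lost.

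**Figure D2:**
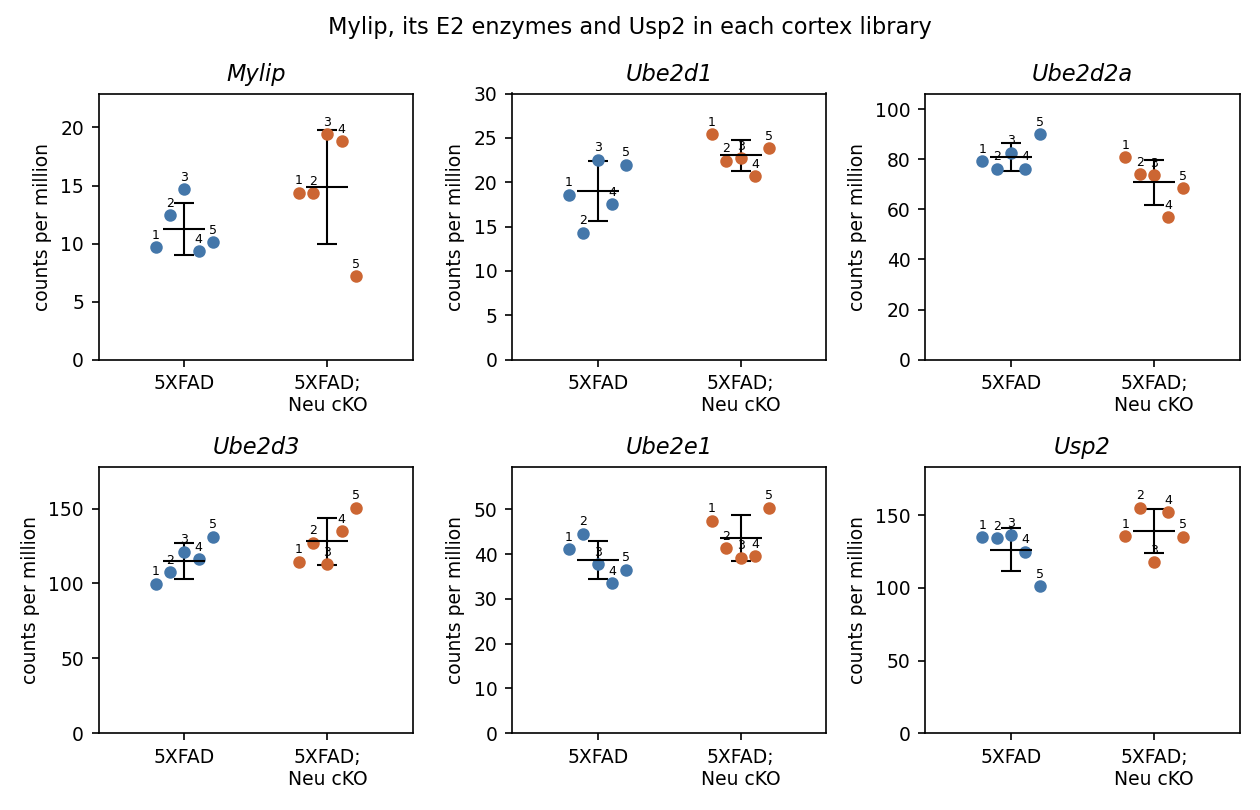
CPM of each of the 6 genes in every library, with the replicate number beside each point and a horizontal bar and whiskers for the mean ± SD (n = 5 per group). The groups overlap in all 6 panels, and Mylip in 5XFAD;Neu cKO replicate 5 (7.18 CPM) lies below the other libraries.

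The E2 enzymes of the UBE2D family differed in the direction of their values. Ube2d1 (chromosome 10, 71090810 to 71121774, minus strand) was at 18.6, 14.3, 22.5, 17.5 and 22.0 CPM in 5XFAD libraries and at 25.4, 22.4, 22.7, 20.7 and 23.8 CPM in 5XFAD;Neu cKO libraries. Of the latter, 3 of 5 were above every 5XFAD library. The fold was 1.21 with a 95% interval of 0.936 to 1.56 (adjusted p = 0.807 by edgeR), and the exact permutation p was 0.0556 (n = 5 per group), or 0.0159 to 0.103 without any 1 library.

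Ube2d2a (chromosome 18, 35904454 to 35942723, plus strand) was the only one of the 6 with a lower mean in 5XFAD;Neu cKO. Its level was 79.1, 76.3, 82.6, 76.2 and 90.0 CPM in 5XFAD libraries and 80.8, 73.9, 73.5, 56.9 and 68.4 CPM in 5XFAD;Neu cKO libraries. In 4 of 5 5XFAD;Neu cKO libraries it was below every 5XFAD library, and replicate 1 lay within the 5XFAD range. The fold was 0.874 with a 95% interval of 0.748 to 1.02 (adjusted p = 0.728 by edgeR). The exact permutation p of the mean log2 CPM was 0.0476 (n = 5 per group) with no adjustment for the 19268 genes, it was 0.389 on CPM without TMM scaling, and it was 0.00794 to 0.119 without any 1 library.

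Ube2d3 (chromosome 3, 135142743 to 135176674, plus strand) is annotated with 102 transcripts and 48 distinct 3′ ends, the most of the 6 genes. It was at 99.8, 108, 121, 116 and 131 CPM in 5XFAD libraries and at 115, 127, 113, 135 and 151 CPM in 5XFAD;Neu cKO libraries. The highest values of both groups were in replicate 5. The fold was 1.11 with a 95% interval of 0.968 to 1.28 (adjusted p = 0.791 by edgeR; exact permutation p = 0.190, n = 5 per group).

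Ube2e1 (chromosome 14, 4137593 to 4187144, plus strand), from a family with an added N-terminal part, was at 41.1, 44.6, 37.8, 33.6 and 36.6 CPM in 5XFAD libraries. In 5XFAD;Neu cKO libraries it was at 47.5, 41.4, 39.3, 39.5 and 50.4 CPM. Replicates 1 and 5 of 5XFAD;Neu cKO were above all 5XFAD libraries and the others lay among them. The fold was 1.13 with a 95% interval of 0.932 to 1.36 (adjusted p = 0.865 by edgeR; exact permutation p = 0.127, n = 5 per group).

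Usp2 (chromosome 9, 43978264 to 44006924, plus strand) was at 135, 134, 136, 125 and 101 CPM in 5XFAD libraries and at 135, 155, 118, 152 and 135 CPM in 5XFAD;Neu cKO libraries. The low value was that of 5XFAD replicate 5, and the values of the other 5XFAD libraries lay within the 5XFAD;Neu cKO range. The fold was 1.10 with a 95% interval of 0.960 to 1.26 (adjusted p = 0.829 by edgeR; exact permutation p = 0.238, n = 5 per group). The antisense gene Gm49380 at its 3′ end had 0 to 4 counts.

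None of the 6 genes passed an adjusted p of 0.05 in edgeR, against 42 of all 19268 genes tested (0.218%), of which 11 were higher (0.0571%) and 31 lower (0.161%). DESeq2 called 73 of the 5820 genes to which it gave an adjusted p (1.25%), and none of the members. It gave no adjusted p for Mylip and Ube2d1, which it therefore could not call. None of the 6 had an unadjusted p below 0.05 in edgeR or in DESeq2, against 7.95% of all genes in edgeR. In none of the 6 did the groups separate without overlap, against 1.3% of all genes. The median log2 fold change of the 6 was 0.16, and that of all genes tested was -0.00056. Each 95% interval holds the changes compatible with these libraries, and those of all 6 genes include no change. For Usp2 and Ube2d3 the interval ended below a 1.3-fold rise, whereas for Mylip, with 45 to 148 counts per library, it reached 1.85-fold.

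**Figure D3:**
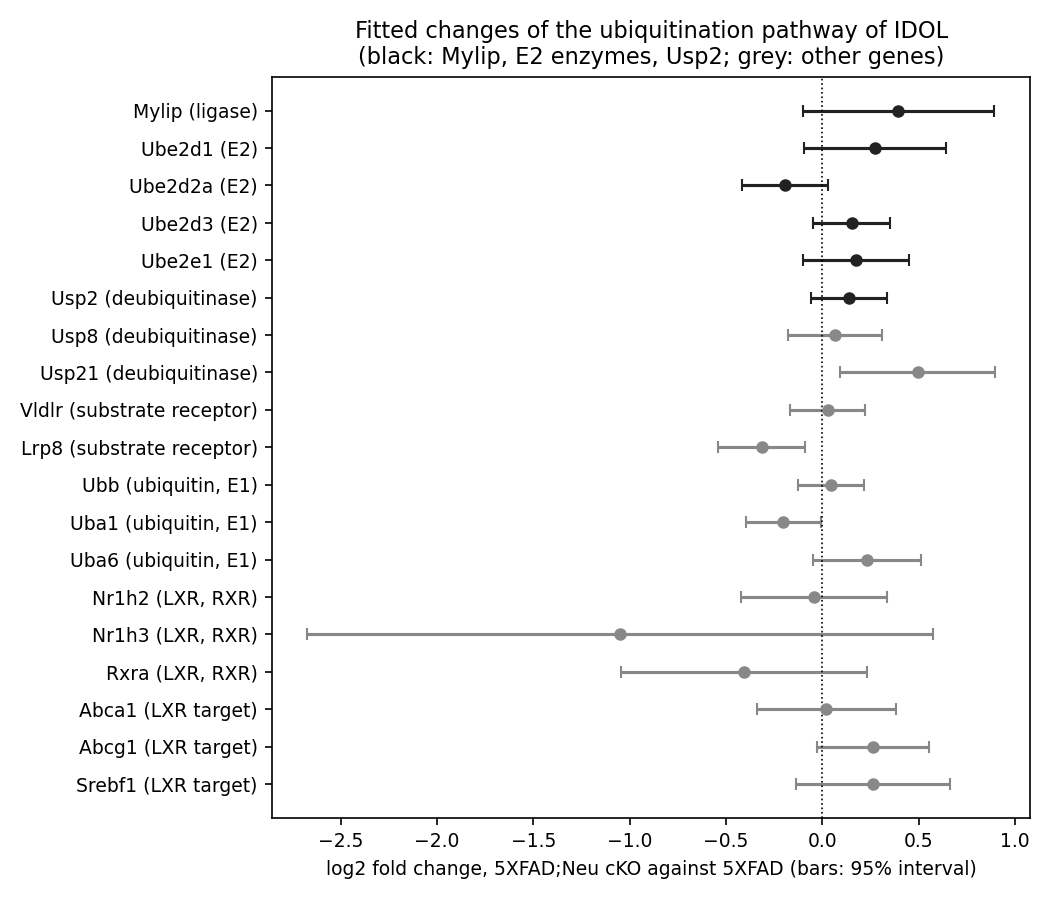
Fitted log2 fold change (5XFAD;Neu cKO against 5XFAD) with its 95% interval for the 6 genes (black) and for other genes of receptor ubiquitination and LXR signaling (grey), from edgeR. All 6 black intervals cross 0, and the widest interval is that of Nr1h3, a gene with 1 to 20 counts per library.

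The make-up of the E2 transcripts differed between the groups in the part taken by Ube2d2a. In each library the counts of Ube2d1, Ube2d2a, Ube2d3 and Ube2e1 were expressed as a share of their sum. Such a share does not depend on how libraries are scaled. The sum includes the counts of Ube2d3 and Ube2e1, which are uncertain for the reasons given above. Reads of Ube2d2a may also have been left out, as stated there. The share of Ube2d2a was 33.1%, 31.4%, 31.3%, 31.3% and 32.2% in 5XFAD libraries. It was 30.1%, 27.9%, 29.6%, 22.5% and 23.3% in 5XFAD;Neu cKO libraries. Every 5XFAD;Neu cKO library lay below every 5XFAD library, and replicates 4 and 5 stood lowest. By the CPM of single genes, the groups did not overlap for 1.3% of all genes tested. How often a share within other sets of genes separates the groups was not computed.

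The mean share of Ube2d2a was 26.7% ± 3.54 in 5XFAD;Neu cKO and 31.9% ± 0.804 in 5XFAD (SD, n = 5 per group), a difference of -5.16 percentage points. The exact permutation p was 0.00794 (two-sided), the smallest that this design can give, and 0.0317 after Benjamini-Hochberg adjustment over the 4 shares, which sum to 100% and are not independent. This p was not adjusted over all genes. Without any 1 library the difference was -6.02 to -4.13 points and the adjusted p 0.0317 to 0.0952, and the adjusted p was above 0.05 without 5XFAD replicate 1, 2, 4 or 5. Among libraries of the mt-Nd3 type the share was 31.4% in the only 5XFAD library and 22.5% to 30.1% in 4 5XFAD;Neu cKO libraries. Among the others it was 31.3% to 33.1% in 4 5XFAD libraries and 27.9% in the only 5XFAD;Neu cKO library.

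The other 3 shares had higher means in 5XFAD;Neu cKO. The mean share of Ube2d1 was 8.69% ± 0.598 against 7.46% ± 0.995 (exact permutation p = 0.0476, adjusted over the 4 shares p = 0.0952, n = 5 per group), which did not pass. The mean share of Ube2d3 was 48.2% ± 4.38 against 45.3% ± 2.32 (adjusted p = 0.317 by the exact permutation test, n = 5 per group), and 2 of 5 5XFAD;Neu cKO libraries exceeded 50%. That of Ube2e1 was 16.4% ± 0.975 (SD) against 15.3% ± 2.31 (adjusted p = 0.381 by the exact permutation test, n = 5 per group). The summed level of the 4 E2 genes was 248 to 293 CPM in 5XFAD;Neu cKO and 239 to 280 CPM in 5XFAD, a mean log2 difference of 0.07 (exact permutation p = 0.317, n = 5 per group). For each Mylip read, 12.8 to 40.8 E2 reads were counted in 5XFAD;Neu cKO and 18.0 to 27.7 in 5XFAD (exact permutation p = 0.468, n = 5 per group).

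**Figure D4:**
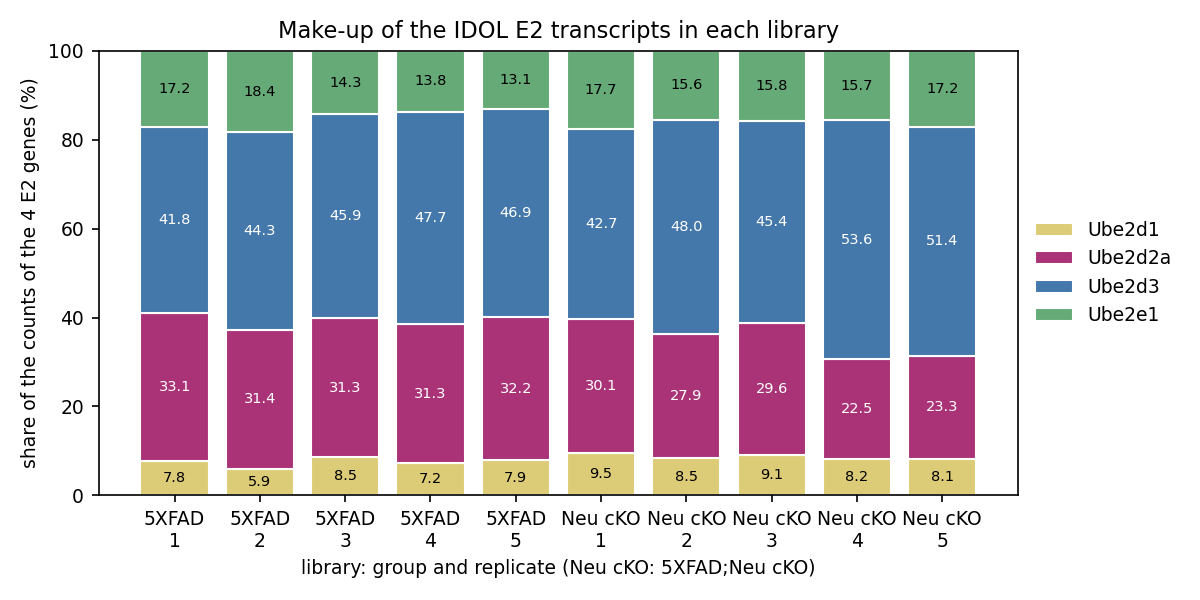
Share of Ube2d1, Ube2d2a, Ube2d3 and Ube2e1 in the summed counts of these 4 genes (percent) for each library, stacked in a bar that runs from 0 to 100%. Ube2d2a takes 31.3% to 33.1% of every 5XFAD bar and 22.5% to 30.1% of every 5XFAD;Neu cKO bar.

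The receptors VLDLR and APOER2, which IDOL ubiquitinates, were measured at the transcript level in the same libraries. Vldlr was at 110 to 129 CPM in 5XFAD and 100 to 138 CPM in 5XFAD;Neu cKO, with a log2 fold change of 0.03 (SE 0.10). Lrp8 was at 71.6 to 94.5 CPM and 59.2 to 78.9 CPM, with a log2 change of -0.31 (SE 0.11). Its unadjusted p was 0.00702 and its adjusted p 0.402 in edgeR, so it did not pass. The groups overlapped for both receptors.

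Genes that act around the same step were read from lists of the pathway. In all, 0 of 165 genes of these lists passed the adjusted threshold in edgeR, and 14 (8.48%) had an unadjusted p below 0.05 against 7.95% of all genes. Ubb, a polyubiquitin gene, had a log2 change of 0.05 (SE 0.08). The E1 genes Uba1 and Uba6 had log2 changes of -0.20 (SE 0.10) and 0.23 (SE 0.14), neither past the threshold.

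Of the 34 E2 genes, 22 had a higher and 12 a lower mean in 5XFAD;Neu cKO, with a median log2 change of 0.09 and none past the threshold. The extremes were genes of about 1 CPM, Ube2v1 (0.89, SE 0.85) and Ube2s (-1.18, SE 0.84). The close relatives Ube2e2 and Ube2e3 had log2 changes of 0.18 (SE 0.16) and -0.14 (SE 0.14). Of the 48 ubiquitin-specific proteases, 28 were higher and 20 lower (median 0.06), between Usp51 at -1.36 (SE 0.77) and Usp43 at 1.03 (SE 0.88). Usp21 was at 9.88 to 19.5 CPM in 5XFAD and 16.3 to 26.0 CPM in 5XFAD;Neu cKO (log2 change 0.50, SE 0.20, adjusted p = 0.471 by edgeR). Usp8, a protease of the endosome that serves the sorting of ubiquitinated receptors, had a log2 change of 0.07 (SE 0.12).

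Of 30 genes of the ESCRT complexes and endosomal sorting, which carry ubiquitinated receptors towards the lysosome, 15 were higher and 15 lower, and 0 passed. Their extremes were Vps25 (1.08, SE 0.86) and Rab5a (-0.22, SE 0.29).

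Mylip transcription is driven by LXR, so the receptors and other target genes were compared. All 5 LXR and RXR genes had a lower mean in 5XFAD;Neu cKO, and 0 of 5 passed the threshold or had an unadjusted p below 0.05 in edgeR, where 7.95% of all genes did. Nr1h2, which encodes LXRβ, was at 16.4 to 23.1 CPM and 16.6 to 26.0 CPM, and its log2 change was -0.04 (SE 0.19). Nr1h3, which encodes LXRα, was listed with 1 to 20 counts (log2 change -1.05, SE 0.81), and Rxra had a log2 change of -0.41 (SE 0.32). Of 11 LXR target genes, 5 were higher and 6 lower with a median of -0.03, and Mylip itself had the highest value of the list. The cholesterol exporters Abca1 and Abcg1 had log2 changes of 0.02 (SE 0.18) and 0.26 (SE 0.15), and Srebf1, which encodes a regulator of lipid synthesis, 0.26 (SE 0.20). Of the lower targets, chosen here after their values were seen, the phospholipid enzyme Lpcat3 had -0.40 (SE 0.22), the phospholipid transfer protein gene Pltp -0.37 (SE 0.20) and the transporter Abcg4 -0.26 (SE 0.18). Apoe, the main apolipoprotein of the brain, was at 1117 to 1455 CPM in 5XFAD and 941 to 1096 CPM in 5XFAD;Neu cKO. Its log2 change was -0.27 (SE 0.07, adjusted p = 0.0997 by edgeR), and it was the 1 target of 11 with an unadjusted p below 0.05. DESeq2, which called 1.25% of the genes it gave an adjusted p for, called it lower.

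Over the 10 libraries, the log2 CPM of Mylip was compared with that of genes of the LXR pathway and the log2 CPM of Usp2 with that of 7 clock genes. None of the 12 correlations computed passed after Benjamini-Hochberg adjustment. Mylip had its highest r with Smpdl3a, an LXR target (r = 0.53, permutation p = 0.119, adjusted p = 0.717; rho = 0.55, permutation p = 0.104). With Abcg1 the r was 0.38, with Abca1 0.13 and with Srebf1 0.17.

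Usp2 and Dbp, a clock output gene whose product binds the D-box, had the highest r of the 12. Dbp was at 73.2 CPM in 5XFAD replicate 2 and 80.2 CPM in 5XFAD;Neu cKO replicate 2, and at 35.9 to 49.9 CPM in the other 8 libraries. Usp2 was highest in 5XFAD;Neu cKO replicate 2 and lowest in 5XFAD replicate 5, where Dbp was lowest too. The r was 0.71 (permutation p = 0.0241, adjusted over 12 p = 0.290), and rho was 0.77 (permutation p = 0.0128, adjusted p = 0.153). It was 0.70 within 5XFAD and 0.73 within 5XFAD;Neu cKO, groups of fewer than 6 given as a description. With group means subtracted, the r was 0.71 (permutation p = 0.0219, adjusted p = 0.198) and rho was 0.82 (permutation p = 0.00579). Without the 2 libraries farthest from the median of Usp2 the pooled r fell to 0.28. Leaving out extreme values of Usp2 also narrows its range, so this fall cannot decide whether the relation rests on those libraries.

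With the other 6 clock genes the pooled r was smaller in size. It was 0.30 with Per1, -0.34 with Per2, 0.06 with Per3, 0.06 with Nr1d1, -0.06 with Ciart and -0.35 with Bmal1, with adjusted permutation p-values of 0.792 to 0.879. With group means subtracted, the r with Bmal1 was -0.68 (permutation p = 0.0330, adjusted p = 0.198). It was -0.85 within 5XFAD and -0.37 within 5XFAD;Neu cKO, and without the 2 libraries farthest from the median of Usp2 the pooled r was 0.04. Of the 19 clock genes tested 15 were higher and 4 lower between the groups. Bhlhe40, a repressor in the clock and a gene induced by activity, had the largest log2 change of them at 0.67 (SE 0.17, adjusted p = 0.0784 by edgeR) and Per2 the lowest at -0.17 (SE 0.22). None passed the threshold. The hour of tissue collection is not given in the sources used here.

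Among the 6 genes themselves, the 15 pairwise correlations of log2 CPM ran from -0.62 to 0.50, and the smallest adjusted permutation p was 0.816. The lowest was that of Ube2d2a and Usp2 (r = -0.62, permutation p = 0.0687; rho = -0.28, permutation p = 0.427), and it was 0.04 without the 2 libraries farthest from the median of Ube2d2a. The highest was that of Ube2d1 and Ube2d3 (r = 0.50, permutation p = 0.144; rho = 0.32, permutation p = 0.367). Mylip had an r of -0.30 to 0.26 with the other 5 genes.

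**Figure D5:**
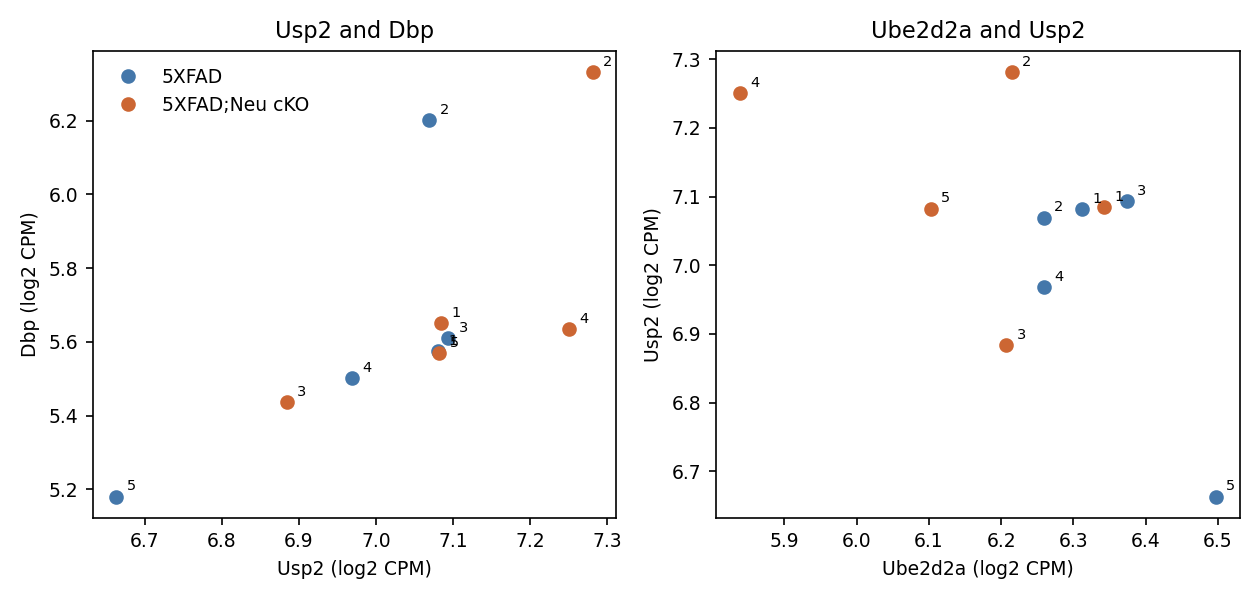
Log2 CPM of Dbp against Usp2 (left) and of Usp2 against Ube2d2a (right) in the 10 libraries, colored by group and marked with the replicate number. The left panel (r = 0.71) shows the 2 libraries with high Dbp, both replicate 2, and the right panel (r = -0.62) the lone positions of 5XFAD replicate 5 and 5XFAD;Neu cKO replicate 4.

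As a description, the genes with a mean of at least 10 CPM were ranked by their r with Mylip and with Usp2 over the 10 libraries, 8840 genes for each. The 5 most like Mylip were Rnf220 (0.89), Rnf208 (0.86), Mknk2 (0.86), Nup88 (0.85) and Jmjd8 (0.84). The 5 most like Usp2 were Tmem256 (0.96), Cdc42se1 (0.92), Myorg (0.90), Gtpbp4 (0.89) and Extl2 (0.88). These are the highest of many values over few libraries that share their depth and scaling. None of the 10 passed the threshold between the groups in edgeR.

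Genes near Mylip were read as well, in a window that was chosen after values had been seen. Of 66 genes tested within 5 Mb of Mylip on either side, 32 were higher and 34 lower in 5XFAD;Neu cKO with a median log2 change of -0.01, and 0 passed the threshold. An unadjusted p below 0.05 was found for 4 of them (6.06%) in edgeR, against 7.95% of all genes, the smallest adjusted p being 0.480 for Ranbp9.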

How the data were processed

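The authors made QuantSeq 3′ FWD libraries from cortical RNA, read them from 1 end, removed adapters and poly(A) with bbduk, aligned the reads to GRCm39 with STAR (2.7.3a per the labels) and counted reads per Ensembl gene with htseq-count. The deposited values are these raw counts per gene, with no normalization. The strand setting of the counting is not given in the sources used here. Rows without a gene (31.3% to 39.9% of the kept reads on no gene) were left out. Symbols and places came from GENCODE vM39 on the same build.

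The groups were compared with the quasi-likelihood test of edgeR 4.0.16 (R 4.3.3, TMM scaling, no covariate). Genes whose total did not exceed 10 were dropped, and p-values were Benjamini-Hochberg adjusted over all 19268 genes at 0.05. SEs were taken from the F statistic. CPM used TMM-scaled sizes, and log2 CPM a prior count of 2. Exact permutation tests of single values used every relabelling of the libraries, and correlations 100000 permutations. The 3′ ends were searched with BLAST 2.17.0. P-values of the group comparisons rest on the spread between 5 mice per group, which edgeR and DESeq2 combine with that of other genes. Those of the correlations come from shuffling all 10 libraries together, so the pooled ones include any difference between the groups. Libraries of the same group all differed by more than sampling noise (smallest chi-square per degree of freedom 5.87). The fits were tested on simulated data. Alternatives were DESeq2 1.42.0, its size factors, filterByExpr, no filter, a robust fit, no mitochondrial genes, a replicate block, a prior count of 0.5, no TMM, each library left out and, added after seeing the data, the mitochondrial base as a covariate.

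The 6 genes, the pathway and marker lists and the rule for named genes were chosen with earlier results of these data known. The rule names the 6 genes, their substrates, LXR and RXR genes and targets, E2 and USP relatives, ubiquitin and E1 genes, the clock genes compared with Usp2, the extremes of each list and the 5 genes most like Mylip and Usp2. Some genes that the lists cover are not reported here. Protein sequences were not used here.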

Additional observations from a re-analysis of the deposited data

How the results depend on the processing

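None of the 6 genes passed the threshold under any of the 18 alternatives to the edgeR fit, and no log2 fold change of the 6 changed sign. DESeq2 gave no adjusted p for Mylip and Ube2d1, as it gave one for 5820 of 19268 genes (unadjusted p = 0.147 and 0.132). Over these alternatives the log2 change of Mylip was 0.27 to 0.57, that of Ube2d2a -0.25 to -0.13 and that of Usp2 0.07 to 0.19. Across all genes the 42 calls became 73 with DESeq2, 103 with no filter on low counts and 91 with the mitochondrial base as a covariate, and 26 to 72 without 1 library.

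No pairing of the mice by replicate number was seen (r of same-numbered deviations -0.08 to 0.05). These values cannot decide whether same-numbered mice share a litter or a processing batch. With the replicate block there were 112 calls over all genes and none among the 6, Mylip having a log2 change of 0.36 (adjusted p = 0.908).

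By the exact permutation test of log2 CPM, 1 of the 6 genes (Ube2d2a) had an unadjusted p below 0.05. On CPM without TMM there were 2, Ube2d1 and Ube2e1, and without 1 library 0 to 1. The share of all genes with such a permutation p was not computed, so these counts have no background. In edgeR 7.95% of all genes had an unadjusted p below 0.05. Of the E2 shares, 1 passed, and 0 to 2 did without 1 library. None of the pathway genes passed in edgeR and 1 did with DESeq2, the LXR target Apoe. With group means subtracted, r changed sign to -0.11 for Mylip and Ube2d1, -0.12 for Ube2d1 and Ube2e1, 0.14 for Ube2d2a and Ube2e1, -0.054 for Ube2d3 and Ube2e1, -0.15 for Ube2d3 and Usp2, and -0.017 for Mylip and Srebf1. The median of the ESCRT list changed sign with filterByExpr. The causes were not tested. The counts of Mylip (45 to 148) limit its precision.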
